A study of Mus musculus with 6 samples.

Results

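The Trim genes encode the tripartite motif proteins, a large family in which a RING finger, 1 or more B-box zinc fingers and a coiled coil stand in a row at the N-terminus. Most members are E3 ubiquitin ligases, which means that the RING finger passes ubiquitin from an E2 enzyme to a chosen substrate. What follows the coiled coil sets the role of each member. A PRY-SPRY domain binds viral capsids, antibodies or signalling proteins, a PHD finger with a bromodomain reads histones, and NHL repeats bind RNA or proteins. Several PRY-SPRY members are induced by interferon and restrict viruses, and others set the strength of RNA and DNA sensing.

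The family was taken here as every gene whose symbol is Trim followed by a digit, which gave 69 of the 35905 genes to which the deposited transcripts could be assigned. Of these, 44 had enough counts to be tested, out of 13247 genes tested in all. A pair of related lines of mouse breast cancer cells were compared by RNA sequencing, EO771-tdT-Parental (called Parental) and EO771-tdT-LM2 (called LM2), with 3 libraries each. EO771 is a mouse mammary tumour line. Both lines carry the genotype label WT. The derivation of LM2, the meaning of tdT in both names and of Ac6, a tag on Parental samples alone, and the origin of the replicates from separate cultures are not given in the labels. A p-value here therefore reflects spread among these libraries alone, which may be technical. Cells of either line grew in RPMI 1640 with 10% serum and were about 75% confluent after 48 h in flasks.

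The libraries held 33922699 to 45849019 estimated counts. Of 7 markers of mammary epithelium, Krt8 was abundant in both lines (420 CPM in Parental and 568 CPM in LM2, where CPM is the count relative to library size after TMM scaling), Epcam was at 0.154 and 15.0 CPM, Krt14 was at 1.11 and 8.47 CPM, and Krt18, Krt19, Krt5 and Cdh1 had at most 0.187 CPM in either line. Of 12 leukocyte markers, the summed level was 4.73 to 4.90 CPM in Parental and 6.69 to 7.65 CPM in LM2. Among them Ptprc, which marks all leukocytes, was at 0.0651 and 0.0745 CPM, and Adgre1 and Nkg7 had no counts in any library. Cd79a rose from 0.113 to 3.21 CPM, Cd68 rose from 1.75 to 2.68 CPM and Lyz2 fell from 2.51 to 0.831 CPM. Of 5 fibroblast markers, Pdpn rose from 0.0531 to 61.7 CPM, Pdgfra rose from 126 to 181 CPM, Col1a2 fell from 0.926 to 0.232 CPM, and Dcn and Lum were below 0.1 CPM. Of 5 endothelial markers, Cdh5 rose from 0.180 to 0.668 CPM, Pecam1 did not pass at 3.49 and 3.59 CPM, and Emcn had no counts. The part of these genes in the results on Trim genes was not tested.

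Of the 8 members that rose by at least 0.58 on the log2 scale, 4 lie in a cluster of PRY-SPRY genes, and a short sequence that these 4 share near their start sites is shown first. RefSeq promoters, from 250 bases before the start of transcription to 50 bases after its first base on build GRCm38.p6, were found for 53 of the 69 members. They were searched on both strands for GAAA, 2 bases of any kind and a further GAAA, the core letters of the element through which interferon-activated factors bind DNA. It stood in 3.44% of all 32851 promoters of the table and in at least 1 promoter of 9 members, 6 of them in the cluster. The 5 sequences of 100 or 36 bases that lie before the start are given below from 5′ to 3′ on the strand of the gene, with the match in capitals. In each of them the match is on the opposite strand and therefore reads TTTC, 2 bases and TTTC, and Trim26 holds 2 overlapping matches.
Trim30a (chr7:104465194-104465293, minus strand): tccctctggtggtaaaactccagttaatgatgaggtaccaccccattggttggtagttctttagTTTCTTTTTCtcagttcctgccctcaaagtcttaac
Trim30d (chr7:104507850-104507949, minus strand): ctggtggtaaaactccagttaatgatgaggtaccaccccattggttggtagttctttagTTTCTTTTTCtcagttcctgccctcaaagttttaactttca
Trim12c (chr7:104353350-104353449, minus strand): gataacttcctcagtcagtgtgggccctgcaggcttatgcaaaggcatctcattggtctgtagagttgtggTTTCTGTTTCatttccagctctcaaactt
Trim5 (chr7:104288107-104288206, minus strand): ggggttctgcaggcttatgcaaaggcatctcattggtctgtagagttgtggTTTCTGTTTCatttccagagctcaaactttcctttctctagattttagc
Trim26 (chr17:36836976-36837011, plus strand): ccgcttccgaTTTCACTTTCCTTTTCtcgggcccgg

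In 3 further members of interest the match lies just after the start, and 30 bases around it are given. Trim21 holds 2 overlapping matches on its own strand, and Trim34a and Trim12a hold 1 on the opposite strand.
Trim21 (chr7:102565447-102565476, minus strand): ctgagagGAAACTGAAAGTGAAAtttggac
Trim34a (chr7:104244457-104244486, plus strand): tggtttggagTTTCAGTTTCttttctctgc
Trim12a (chr7:104315466-104315495, minus strand): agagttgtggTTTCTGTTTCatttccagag

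Of the 4 sequences of 100 bases, 2 pairs are near copies. With an offset of 5 bases, 94 of 95 bases were identical between Trim30a and Trim30d, and with an offset of 20 bases, 75 of 80 were identical between Trim12c and Trim5. The 30 bases of Trim12a occur unbroken in the sequence of Trim5. Trim2 was the ninth member with a match. Of the 8 members with a match that were tested, 7 were higher in LM2 and 1, Trim12a, was not called. Among the 7, Trim2 and Trim26 lost their call in some of the alternatives described below. Trim30d, also among the 7, passed the filter on low counts only through LM2. It could therefore be tested only because it was higher there. Of the 23 tested members with a promoter but no match, 10 were higher in LM2 (43.5%). Over all 365 tested genes with a match, 34.8% were higher in LM2, against 32.6% of those without one. A match describes letters in a window and is no evidence of binding.

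Across the family, more members were higher than lower in LM2. The quasi-likelihood test of edgeR was applied to all tested genes, with p-values adjusted after Benjamini and Hochberg. Of the 44 members tested, 23 rose, 5 fell and 16 missed the threshold. In these bulk samples, a change in the number of cells that express a gene and a change in RNA per cell cannot be told apart. The 28 called members are 63.6% of those tested, close to the 62.4% called among all tested genes. The split differed from that of all genes. Members higher in LM2 were 52.3% of those tested, against 31.4% of all tested genes, and members lower in LM2 were 11.4%, against 31.1%. The median log2 fold change, LM2 minus Parental, was 0.19 over tested members and -0.00 over all tested genes. The libraries of both lines were fully separate in 30 members (67.0% of all tested genes). The 3 LM2 libraries lay above the 3 Parental libraries without overlap in 24 members (33.4% of all tested genes) and below them in 6 (33.6% of all). Trim66, Trim30d, Trim63 and Trim67 passed the filter on low counts through their 3 LM2 libraries, with at most 1 Parental library at its minimum of about 0.27 CPM. They could be tested only because they were higher in LM2, which holds for the 2 largest rises of the family.

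**Figure D1:**
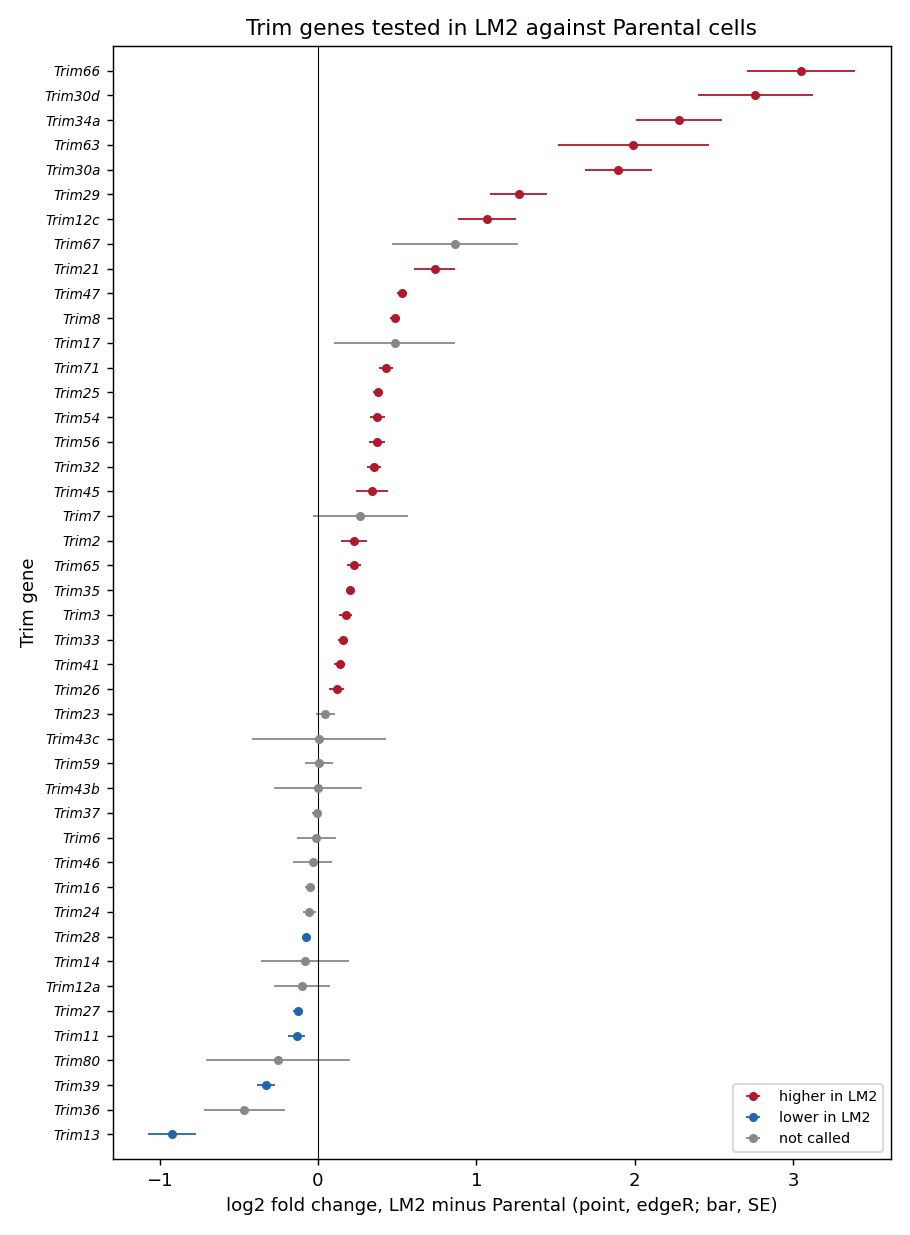
Log2 fold changes of the 44 tested Trim genes, LM2 minus Parental (points, edgeR; bars, SE), sorted by size and coloured by the call at an adjusted p below 0.05. Trim66 (3.05) and Trim30d (2.76) stand at the top and Trim13 (-0.92) at the bottom, while 15 risers lie between 0.12 and 0.53.

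A log2 fold change of at least 0.58 (about 1.5-fold) with a call was reached upwards by 8 members, 18.2% of those tested against 10.9% of all tested genes. It was reached downwards by 1 member, 2.27% against 5.94%. Among the 8 are Trim66, Trim30d and Trim63, which passed the filter on low counts only through LM2. The share of larger rises therefore includes members that could be tested only because they were higher in LM2. The 15 smaller rises ranged from 0.12 to 0.53 and the 4 smaller falls from -0.33 to -0.08 on the log2 scale.

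The cluster of Trim6, Trim34a, Trim5, Trim12a, Trim34b, Trim12c, Trim30b, Trim30c, Trim30a and Trim30d, in that order on chromosome 7, held 4 of the 8 larger rises. Its members are relatives of the retroviral restriction factor TRIM5alpha of primates. Of the 10 genes, 6 were tested, 4 rose and none fell, with a median log2 fold change of 1.48. Shares over all tested genes were 31.4% higher and 31.1% lower. Among the risers, Trim30d could be tested only because it was higher in LM2. The count of risers and the median both include it. The 4 risers, Trim30a, Trim30d, Trim34a and Trim12c, were low in Parental cells. Trim6 and Trim12a, which lie between or beside them, did not pass.

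Trim30a encodes an interferon-inducible protein that restrains NF-kB signalling downstream of Toll-like receptors. It was at 1.12, 1.10 and 0.793 CPM in Parental replicates 1 to 3 and at 2.78, 3.88 and 4.58 CPM in LM2 replicates 1 to 3. Every LM2 library was above every Parental one, and LM2 varied more. The level rose 3.72-fold, a log2 fold change of 1.90 ± 0.21 (SE, edgeR adjusted p = 7.72e-08).

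Trim30d, its neighbour and closest relative, was at 0.154, 0.165 and 0.173 CPM in Parental and at 0.955, 1.07 and 1.36 CPM in LM2. The groups did not overlap, and the log2 fold change was 2.76 ± 0.36 (edgeR adjusted p = 7.03e-07). This rests on 20 counts over the Parental libraries and 121 over the LM2 libraries. Reads of the copies are only in part separable. Of the 31-base words of Trim30a, 11.9% occur in transcripts of other genes, 8.53% in Trim30d.

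Trim34a, a PRY-SPRY gene whose human relative is induced by interferon, was at 0.396, 0.331 and 0.471 CPM in Parental and at 1.74, 2.19 and 1.94 CPM in LM2. All LM2 libraries were higher, by 4.85-fold on the fitted scale (log2 fold change 2.28 ± 0.27, edgeR adjusted p = 1.77e-07). Its near copy Trim34b shares 48.7% of the words of Trim34a and received 0 counts in Parental and 3 in LM2. The estimates thus place nearly all counts on Trim34a, although reads of the shared words alone cannot separate the pair. The assignment of Trim34a counts to its transcripts varied between libraries. The transcript Trim34a-201 took 0.167%, 0% and 0.158% of the counts in Parental and 74.4%, 42.1% and 30.4% in LM2. In Parental the gene had 49 counts in all. There Trim34a-203 took 17.97, 0 and 18.97 counts and Trim34a-202 took 0, 12 and 0. The Parental libraries thus differed among themselves, and these shares are uncertain.

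Trim12c was at 1.89, 1.76 and 1.54 CPM in Parental and at 2.84, 3.53 and 4.51 CPM in LM2. It rose 2.09-fold without overlap of the libraries (log2 fold change 1.07 ± 0.19, edgeR adjusted p = 3.05e-05). Of its words 46.7% are shared with other genes, mostly Trim5, which was itself under the filter with 14 counts in Parental and 34 in LM2.

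Trim12a and Trim6 behaved otherwise. Trim12a was at 3.43, 3.17 and 2.53 CPM in Parental and at 2.23, 2.82 and 3.46 CPM in LM2, so the groups overlapped (log2 fold change -0.10 ± 0.18). Trim6, which makes free ubiquitin chains in interferon signalling, was at 4.42, 5.10 and 4.24 CPM in Parental and at 4.37, 4.89 and 4.38 CPM in LM2 (log2 fold change -0.01 ± 0.12). In both genes most counts went to a transcript annotated as a retained intron. In Trim6 a transcript of 1490 bases took 87.2% of the counts in Parental and 79.9% in LM2. In Trim12a one of 3730 bases took 90.2% and 78.7%. In TPM, a measure of level corrected for length, the mean of Trim12a went the other way. It was 1.53 in Parental and 2.02 in LM2, and the libraries overlapped there too.

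**Figure D2:**
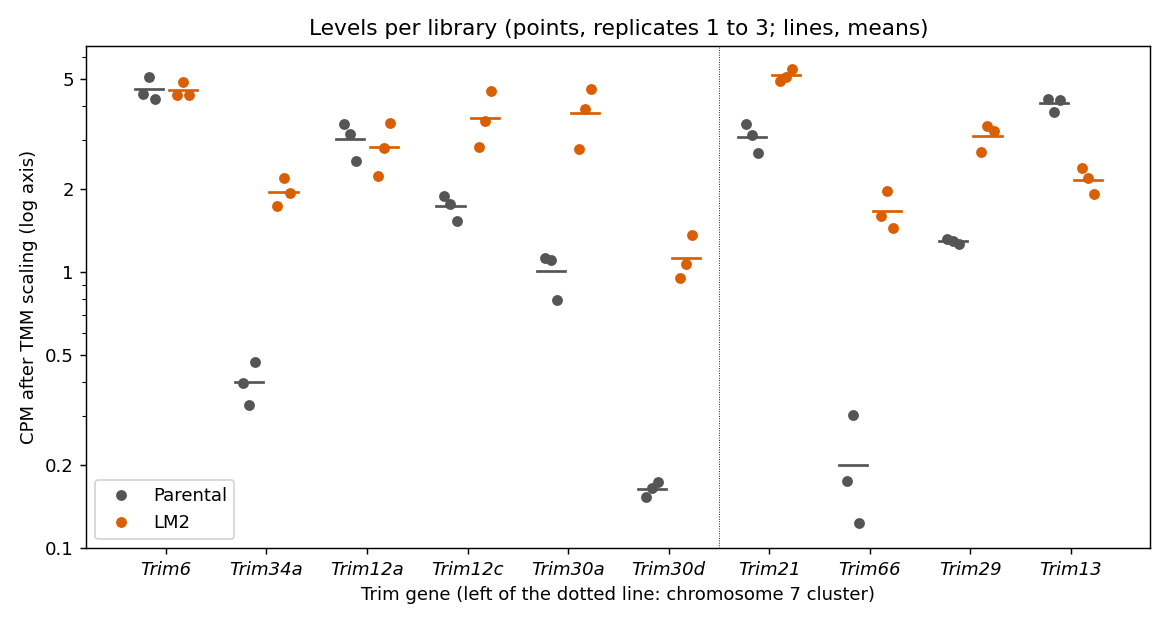
CPM after TMM scaling on a log axis for 10 Trim genes, with 1 point per library (Parental grey, LM2 orange) and a line at each mean. Of the 6 cluster genes left of the dotted line, Trim34a, Trim12c, Trim30a and Trim30d are higher in every LM2 library, and Trim6 and Trim12a overlap.

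Genes of the interferon response were mostly higher in LM2 as well. Of 22 genes of an interferon core list, 20 rose, 1 fell and 1 did not pass, with a median log2 fold change of 1.17. The shares that rose and fell among all tested genes were 31.4% and 31.1%. Ifi44 rose 29.8-fold, Oas2 15.5-fold and the deconjugating protease Usp18 12.4-fold, while the GTPase gene Mx1, at 1.78 and 2.20 CPM, did not pass. The median of this list relative to the Parental mean was 0.87, 1.04 and 1.30 in LM2 replicates 1 to 3 and -0.07 to 0.06 in the Parental libraries. LM2 replicate 3 was the highest library for that median and for Trim30a, Trim30d, Trim12c and Trim21, and LM2 replicate 2 for Trim34a. The median of all tested Trim members was likewise highest in LM2 replicate 3, at 0.22 against 0.15 in each of LM2 replicates 1 and 2. That median includes the cluster genes, so it is no separate comparison. The part of the interferon genes in the cluster's rise was not tested.

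Among members that act in innate signalling, changes were broad and mostly small. Of 18 listed genes 14 were tested, 9 rose, 3 fell and 2 did not pass, with a median log2 fold change of 0.17. Beside this, 31.4% of all tested genes rose and 31.1% fell. Trim21, the cytosolic antibody receptor, had the largest rise of this list. It was at 3.43, 3.14 and 2.70 CPM in Parental and at 4.92, 5.10 and 5.45 CPM in LM2, with no overlap (log2 fold change 0.74 ± 0.13, edgeR adjusted p = 4.00e-05). Trim25, which ubiquitinates the RNA sensor RIG-I and is itself induced by interferon, was higher in LM2 by 0.38 on the log2 scale, with a mean CPM of 90.4 ± 1.18 in Parental against 117 ± 4.99 (SD, 3 libraries each). Trim56, which acts on the DNA sensing pathway, rose from 53.6 ± 2.18 to 69.3 ± 5.12 CPM. Trim8, an activator of NF-kB signalling, rose by 0.49 on that scale, with a mean CPM of 52.0 ± 1.25 against 72.9 ± 1.65. Trim32, Trim65, Trim41 and Trim26 rose by 0.35, 0.23, 0.14 and 0.12 on the log2 scale.

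Trim35, second to Trim27 in this list by TPM, a measure of level corrected for length, was at 185, 179.8 and 179 CPM in Parental and at 208, 206 and 213 CPM in LM2. The rise was small but larger than the spread (log2 fold change 0.20 ± 0.03). Trim27 was at 114, 109 and 111 CPM in Parental and at 102, 99.9 and 104 CPM in LM2, lower in every LM2 library (log2 fold change -0.13 ± 0.03, edgeR adjusted p = 0.000709). Trim11, at 30.8 ± 1.60 and 28.0 ± 1.23 CPM, was called lower although its libraries overlapped, the only called member for which they did.

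Trim13 had the largest fall of the family. It encodes a ligase anchored in the membrane of the endoplasmic reticulum, with roles in protein degradation there and in autophagy. It was at 4.24, 3.80 and 4.19 CPM in Parental and at 2.37, 2.19 and 1.91 CPM in LM2, without overlap. The fall was 1.89-fold (log2 fold change -0.92 ± 0.15, edgeR adjusted p = 1.50e-05), and 28.7% of its words occur in 1 other gene, Gm9359. Trim59, the other member with a membrane segment, did not pass, with 8.71 ± 0.663 and 8.74 ± 0.655 CPM. Trim14 and Trim23 did not pass either, with 1.13 and 1.08 CPM and with 18.0 and 18.6 CPM.

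In the chromatin group, the abundant members hardly moved and the rare one rose most of all. Trim28, also called KAP1, is the corepressor that KRAB zinc finger proteins bring to DNA to silence retroelements. It was the most abundant member of the family at 225 ± 1.28 TPM in Parental and 211 ± 5.07 TPM in LM2, on the length-corrected scale. In CPM it was at 352, 346 and 345 in Parental and at 332, 330.5 and 325 in LM2, a log2 fold change of -0.08 ± 0.02 (edgeR adjusted p = 0.00605). The fall is 1.06-fold, although the groups did not overlap. Trim33, a ligase that binds Smad proteins, was at 67.5, 69.7 and 70.8 CPM in Parental and at 76.5, 75.7 and 79.8 CPM in LM2, a log2 fold change of 0.16 ± 0.03. Trim24, a coregulator of nuclear receptors and a ligase for p53, was at 41.1, 38.8 and 41.0 CPM and at 38.8, 37.9 and 39.8 CPM, and its groups overlapped.

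Trim66, a relative of these 3 genes that lacks the RING finger, had the largest rise of the family. It was at 0.176, 0.303 and 0.124 CPM in Parental and at 1.59, 1.96 and 1.44 CPM in LM2. Every LM2 library was higher, by 8.28-fold on the fitted scale (log2 fold change 3.05 ± 0.34, edgeR adjusted p = 7.51e-08). Its counts summed to 24 in Parental and 176 in LM2, nearly all on 1 protein-coding transcript of 9250 bases, and none of its 31-base words is shared with other genes. Because the transcript is long, the level per length stayed low in LM2, at 0.306 ± 0.0585 TPM.

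Partners of Trim28 in silencing went both ways, as did all tested genes, of which 31.4% rose and 31.1% fell. Of 15 such genes tested, 5 rose, 7 fell and 3 did not pass, with a median of -0.05. Zfp57, a KRAB zinc finger protein that keeps imprints, rose 3.24-fold from 4.87 to 15.8 CPM. Zfp809, which silences retroviral sequences, fell 1.39-fold from 22.0 to 15.8 CPM, and Cbx3, an HP1 protein, fell 1.38-fold from 433 to 313 CPM. Chd4, at 629.9 ± 11.9 and 608 ± 42.7 CPM, did not pass. Of 8 genes of the Smad and p53 pathways on which Trim33 and Trim24 act, 4 rose, 3 fell and 1 did not pass. The Smad corepressor gene Ski rose 1.69-fold and Smad3 1.58-fold, Skil fell 1.43-fold, and Smad4, at 102 and 105 CPM, did not pass.

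All 4 members with NHL repeats rose, by small amounts, with a median log2 fold change of 0.29. Of all tested genes, 31.4% rose. Trim71, known as an RNA-binding regulator of embryonic and stem cells, was at 35.9, 36.1 and 35.7 CPM in Parental and at 47.6, 46.8 and 50.7 CPM in LM2 (log2 fold change 0.43 ± 0.04, edgeR adjusted p = 1.01e-08). Trim32 rose from 31.7 to 40.5 CPM, Trim2 from 8.82 to 10.3 CPM and Trim3, known from endosomal transport and neurons, from 38.6 to 43.6 CPM. With offsets for effective transcript length, the log2 fold change of Trim2 was 0.07 in place of 0.23 (edgeR adjusted p = 0.522) and that of Trim3 0.14 in place of 0.18 (edgeR adjusted p = 0.119), and both calls were lost. The calls of Trim11, Trim33 and Trim45 were also lost there, at -0.10, 0.09 and 0.26 on the log2 scale, and so was that of Trim26, whose value of 0.15 was above the 0.12 without offsets.

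Members of the COS box group, which bind microtubules or the sarcomere, were mixed. Of 5 tested, 2 rose and 3 did not pass, while 31.4% of all tested genes rose and 31.1% fell. Trim63 and Trim67, among the 5, could be tested only because they were higher in LM2. Trim54, known from striated muscle, rose by 0.37 on the log2 scale. Its mean CPM was 24.8 ± 0.648 against 32.2 ± 0.236. Trim63, known as the ligase of muscle wasting MuRF1, had 15 counts in Parental and 53 in LM2 and rose, with a log2 fold change of 1.99 ± 0.48. Trim36, Trim46 and Trim67 had log2 fold changes of -0.46, -0.03 and 0.87 and did not pass. Libraries did not overlap for Trim67, higher in LM2 with 32 and 51 counts (edgeR adjusted p = 0.0627), or for Trim36, lower in LM2 with 181 and 115 counts (edgeR adjusted p = 0.119).

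Trim29 and Trim16 are members that lack the RING finger. Trim29, which is known from squamous and basal epithelia, was at 1.32, 1.29 and 1.26 CPM in Parental and at 2.72, 3.38 and 3.25 CPM in LM2. The rise was 2.41-fold without overlap (log2 fold change 1.27 ± 0.18, edgeR adjusted p = 2.68e-06). The protein-coding transcript of 2735 bases took 90.5% of its counts in Parental and 89.4% in LM2 but only 37.7% and 34.7% of its TPM, since the rest lay on a transcript of 323 bases. Trim16 did not pass at 62.9 ± 1.14 and 60.7 ± 0.826 CPM, although its libraries did not overlap.

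Trim47, a PRY-SPRY ligase, was the second most abundant member by TPM and the abundant one that changed most. It was at 117, 113 and 114 CPM in Parental and at 175, 161 and 161 CPM in LM2, with LM2 replicate 1 the highest. The rise was 1.44-fold (log2 fold change 0.53 ± 0.03, edgeR adjusted p = 1.08e-11). The libraries did not overlap, and 7.27% of its words are shared with its neighbour Trim65. Trim45, a member with a filamin domain, rose by 0.34 on the log2 scale, and Trim37, which acts at centrosomes, did not pass at 78.4 ± 1.24 and 78.0 ± 0.381 CPM. Of the 2 tested members near the MHC genes on chromosome 17, Trim26 rose and Trim39 fell, from 26.1 ± 1.71 to 20.7 ± 0.869 CPM.

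On the scale of TPM, 19 members averaged at least 10. Trim28 was far above the next. Trim47 at 89.9 ± 2.10 TPM was below Trim27 at 108 ± 1.23 TPM in Parental, and in LM2 the order was turned, with 131 ± 4.70 TPM for Trim47 and 99.3 ± 3.46 TPM for Trim27. Trim35 followed at 77.6 ± 1.37 and 91.5 ± 2.09 TPM, and Trim3 at 41.2 ± 1.17 and 46.5 ± 4.42 TPM. The cluster's risers averaged below 2 TPM in LM2, with Trim30a at 1.98 ± 0.0498 and Trim34a at 1.32 ± 0.207 TPM. The small SD of Trim30a includes a transcript of 534 bases, which held 0.948 TPM from 7.25 counts in LM2 replicate 1. Its protein-coding transcript was at 1.06, 1.60 and 1.92 TPM in the LM2 libraries.

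**Figure D3:**
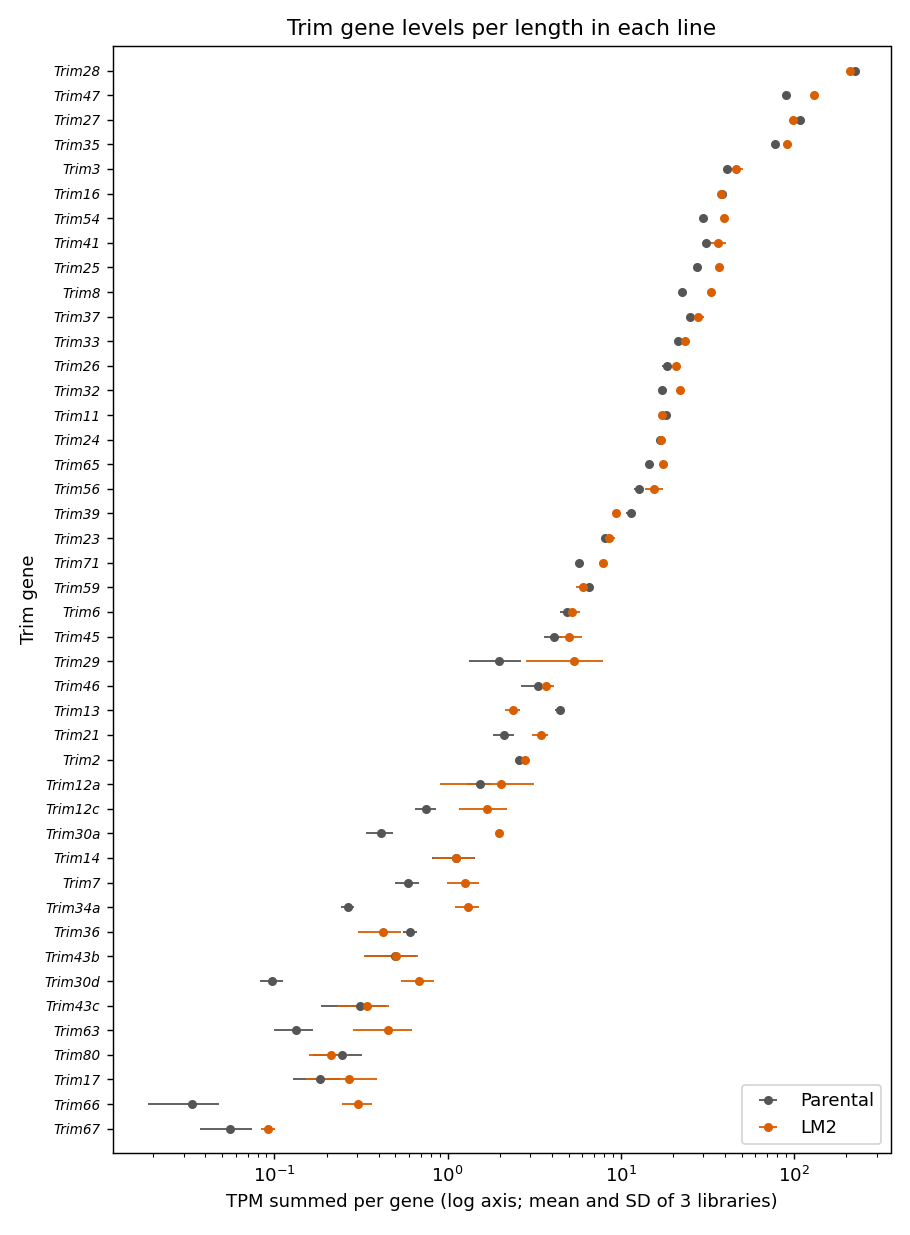
TPM summed per gene on a log axis for the 44 tested Trim genes, as mean and SD of 3 libraries in Parental (grey) and LM2 (orange). Trim28 leads at 225 and 211 TPM, and the members with the largest separation between lines, such as Trim30d and Trim66, lie at the low end.

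Position on the chromosome was compared because the median fold change differed between chromosomes. For each tested member the 20 nearest tested genes outside the family were taken, 10 on each side in the order of the GRCm38 annotation. Around the cluster their median log2 fold change was 0.10, and Trim30a, Trim30d, Trim34a and Trim12c were each above all 20 of them, while Trim6 and Trim12a were above 8. Trim66 was above all 20 of its neighbours (median 0.32) and Trim25 above all 20 of its own (median 0.00). Trim13 was above 1 of 20 (median 0.01). Trim39, at -0.33, and Trim36, at -0.46 and not called, were above 0 of 20 (medians 0.08 and -0.07). On chromosome 4, where the median of all tested genes was 0.39, Trim32 at 0.35 was close to its neighbours (median 0.31), Trim63 was above 18 of 20 (median 0.53) and Trim14 at -0.08 was above 3 of 20 (median 0.38). Trim67, at 0.87 and not called, was above 18 of 20 (median -0.15) and lies on chromosome 8, where the median was -0.31. Trim66, Trim30d, Trim63 and Trim67 could be tested only because they were higher in LM2. Their high places among tested neighbours were therefore in part fixed by the filter.

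**Figure D4:**
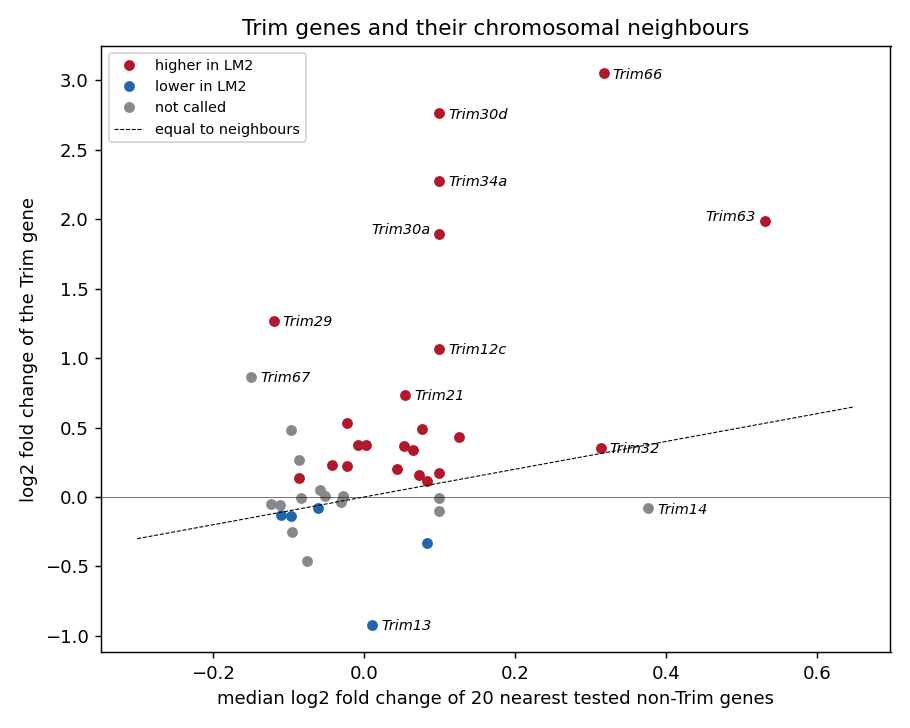
Log2 fold change of each tested Trim gene (vertical axis) against the median of its 20 nearest tested non-Trim genes (horizontal axis), with the dashed line where both are equal. Trim66, Trim30d, Trim34a and Trim30a lie far above neighbours with medians of 0.10 to 0.32, and Trim32 lies on the line. Trim66, Trim30d, Trim63 and Trim67 could be tested only because they were higher in LM2.

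Other genes that work with the family were counted from lists by role. Beside these counts stand 31.4% higher and 31.1% lower among all tested genes. Of 14 E2 enzymes, 5 rose, 7 fell and 2 did not pass, with a median log2 fold change of -0.07. Ube2l6, the interferon-induced E2 of ISG15, rose 1.78-fold from 3.75 to 6.65 CPM. Ube2n and its partner Ube2v2, which build chains linked through lysine 63, fell 1.33-fold and 1.32-fold, and Ube2k, at 103 and 99.9 CPM, did not pass. Of 17 genes of RNA and DNA sensing, 8 rose, 7 fell and 2 did not pass, with a median of -0.06. The RIG-I gene Ddx58, a substrate of Trim25, rose by 1.73 on the log2 scale, with a mean CPM of 16.3 ± 0.440 against 54.1 ± 8.77. The sensor gene Ifih1 rose 2.25-fold and the kinase gene Map3k7 1.57-fold. Tmem173, which encodes STING, did not pass, with 40.2 and 38.5 CPM. Of 5 tested relatives with other names, 3 rose and 1 fell. Pml, the organiser of nuclear bodies, rose 1.42-fold from 33.0 ± 1.30 to 46.8 ± 3.96 CPM, and the microtubule-binding Mid2 rose 1.27-fold.

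The 25 members that were not tested had 0 to 52 counts over the 6 libraries. They are Trim5, Trim9, Trim10, Trim15, Trim30b, Trim30c, Trim30e-ps1, Trim31, Trim34b, Trim38, Trim40, Trim42, Trim43a, Trim44, Trim50, Trim52, Trim55, Trim58, Trim60, Trim61, Trim62, Trim68, Trim69, Trim72 and Trim75. Of these, Trim30e-ps1, Trim40, Trim42, Trim55 and Trim68 had no count in any library, which allows a level of up to 0.0131 CPM over all 6 (3 counts of the total, counting error only). Among those tested and not yet described, Trim7, Trim17, Trim43b, Trim43c and Trim80 averaged below 1 CPM in each line and missed the threshold. Trim43b and Trim43c share 64.5% and 58.6% of their words with other genes.

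The authors' deposited table of fold changes lists 38 members. Its direction is not written and was taken as the one closer to the values above, so its signs are no separate check. In that direction the authors' deposited table gives 2.91 for Trim66, 2.45 for Trim30d, 2.19 for Trim30a, 2.13 for Trim34a and -0.91 for Trim13. The sign was the same in 33 of the 38 members, which include all 27 called members listed there. Trim12a and Trim6, not called here, differed in sign. They stand at 0.24 and 0.07 in the authors' deposited table, against -0.10 and -0.01 above.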

How the data were processed

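For each library the authors deposited TPM and estimated counts of 117486 transcripts, with their lengths. The submitters' processing notes name kallisto 0.46.2, build GRCm39, FastQC, MultiQC and edgeR 3.32.1. How strand was treated is not given in the sources used, so overlapping and antisense genes cannot be told apart. The authors also deposited log2 fold changes per gene symbol. Their base and direction are not written and were read from their median distance of 0.0243 from the LM2 minus Parental values over 10531 genes, against 0.444 with the sign turned.

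Transcripts were assigned to genes with GENCODE M21 (GRCm38), used for names and gene order only, and 116408 (99.08%) matched. Unmatched transcripts, 0.426% to 0.448% of counts, were left out. Deposited estimated counts were added up by gene, then rounded. Deposited TPM was summed per gene for levels between genes. LM2 was compared with Parental in edgeR 4.0.16 under R 4.3.3 (filterByExpr, TMM, robust quasi-likelihood, no covariate), with a call at an adjusted p below 0.05. The SE printed is the absolute log2 fold change divided by the root of F, an approximation. Alternatives were DESeq2 1.42.0, limma 3.58.1 voom, other scalings and filters, length offsets, a replicate block and leaving out each library.

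Values in every library were given for called members of at least 0.58 in absolute log2 fold change and 1 CPM, the 4 most abundant by TPM, the tested cluster members, and Trim24, Trim28 and Trim33. From each related list at most 3 called genes with the largest change (minimum 5 CPM) and 1 abundant uncalled gene were named. Trim71 and other members given in part were added after their values were seen. The members and lists were chosen with earlier results of these data known. Protein sequences were not used here.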

Additional observations from a re-analysis of the deposited data

How the results depend on the processing

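Of the 28 called members, 22 kept their direction and call in each of the 14 alternatives that tested them, among them Trim66, Trim30a, Trim30d, Trim34a, Trim12c, Trim21, Trim29, Trim47 and Trim13. No tested member that was called changed direction. The other 6, Trim2, Trim3, Trim11, Trim26, Trim33 and Trim45, lost their call in at least 1 alternative, all of them with effective length offsets. Leaving out 1 library also ended the call of Trim45 (without LM2 replicate 1, edgeR adjusted p = 0.0602), Trim2 (without Parental replicate 1 or 3 or LM2 replicate 3, 0.0763 to 0.105), Trim26 (without Parental replicate 2 or 3 or LM2 replicate 3, 0.0847 to 0.131) and Trim11 (without Parental replicate 2 or 3 or LM2 replicate 2 or 3, 0.0537 to 0.154). The number of called members ranged from 23 with effective length offsets to 28, with 25 by DESeq2 and 26 to 27 when 1 library was left out. Risers numbered 19 to 23 and fallers 4 to 5. Without a low-count filter the median log2 fold change of members was 0.32, as more low genes were included. With the replicate number as a block, 28 members and 8250 genes were called, against 28 and 8272 without it. Deviations of same-numbered libraries correlated at -0.094, -0.003 and -0.007, and 0 of the 6 libraries correlated best with its own number, so the numbers were not taken to pair the libraries. Members under 1 CPM are limited by counts.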

Other observations

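Trim44, which encodes a member with a ubiquitin-hydrolase type zinc finger in place of the RING, had 3 counts over the Parental libraries and 5 over the LM2 libraries, while its 20 nearest tested genes had a median of 29.9 CPM in the higher line.

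Trim7 was the member whose fold change moved most with the handling of transcript length. Its log2 fold change was 0.27 on gene counts (edgeR adjusted p = 0.455) and 1.06 with effective length offsets (edgeR adjusted p = 0.0113), and the authors' deposited table gives 1.05. Its counts summed to 97 in Parental and 103 in LM2, and its TPM was 0.590 ± 0.0946 and 1.25 ± 0.265 (SD, n = 3 each). In LM2, 50.1% of that TPM came from a transcript of 298 bases with 5.27 estimated counts over the 3 libraries. Over the 14 alternatives its call was made with that offset only.

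Of the 34 tested members with at least 100 counts in each line, 6 had a transcript whose mean share of the gene's counts differed by at least 10 percentage points. These were Trim11, Trim12a, Trim13, Trim14, Trim24 and Trim46, and the libraries were separate in 3 of them, Trim11, Trim12a and Trim14. Trim11-201 took 33.0%, 24.4% and 34.8% of the counts of Trim11 in Parental and 45.0%, 53.4% and 37.0% in LM2. Trim14-202 took 62.6%, 66.4% and 36.3% of the counts of Trim14 in Parental and 34.3%, 36.0% and 28.8% in LM2, and the lowest Parental and highest LM2 shares nearly met. These shares are estimates of kallisto and were not tested, and the minimum and the difference in points were set after the values were seen.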
